A study of Homo sapiens with 6 samples.

Results

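The 41 genes described here act when a cell enters, runs through and leaves mitosis: the cyclin-CDK1 kinase and its activator, mitotic kinases, the spindle checkpoint, centromere and kinetochore proteins, kinesins, spindle proteins, and genes of anaphase and cytokinesis. They were chosen by name as kinetochore, spindle, checkpoint and late cell cycle genes. No measured value entered the rule, but the choice was made with earlier results of these data known. All 41 symbols were among the 21512 rows of the gene table, all 41 were among the 13885 genes tested (a mean of at least 20 counts per library), and no member had a count of 0 in any library.

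RNA was sequenced from 2 human prostate cancer lines, LNCaP and BicR, on the SOLiD 3 Plus short-read platform. LNCaP is an established line that responds to androgen, and the labels give no derivation for BicR. Cells of both lines spent 3 days without phenol red in medium with 2.5% charcoal-stripped serum, which is poor in steroid hormones. They then received for 24 h either ethanol (the vehicle), the androgen dihydrotestosterone (DHT) at 10 nM, or the antiandrogen bicalutamide at 1 µM. There was 1 library for each line and treatment, 6 in all, so a difference within a line has no replicate check and carries no p-value, and all cells of a group stand in a single library. The libraries held 42162723 to 55917016 counts each, and 16756 to 17062 genes with counts. In bulk RNA, fewer cells in mitosis and less of each transcript per cell cannot be told apart.

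Cells that divide build up most of these transcripts in G2 and mitosis and lose them on leaving mitosis. Many of the genes are held down in resting cells by the DREAM complex and switched on by complexes of MuvB with B-MYB and FOXM1, which bind a short promoter element known as the cell cycle genes homology region (CHR), often beside CCAAT boxes bound by NF-Y. In prostate cancer, androgen is a growth signal, and mitotic transcripts are widely used as a readout of proliferation.

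Promoter sequences for 35 of the 41 genes were matched by symbol in a RefSeq table of the GRCh38.p14 build, giving 42 windows of the 150 bases before an annotated transcription start. The deposited counts were made on hg19, and no coordinate was carried between the builds. The windows were searched on both strands for TTTGAA and TTTAAA, the letters of the CHR, and for CCAAT. The 6 windows shown are those of a pair of B-type cyclins (CCNB1 and CCNB2), of PLK1 and HMMR, which had the largest difference from ethanol in LNCaP under DHT and under bicalutamide respectively, of MKI67, which had the lowest adjusted p between the lines, and of NUF2, which had the largest ratio of counts to ethanol and no match. Capitals mark matches on either strand, so that CCAAT on the other strand reads ATTGG, and adjoining capitals can hold overlapping matches.
CCNB1, chr5:69167000-69167149, plus strand: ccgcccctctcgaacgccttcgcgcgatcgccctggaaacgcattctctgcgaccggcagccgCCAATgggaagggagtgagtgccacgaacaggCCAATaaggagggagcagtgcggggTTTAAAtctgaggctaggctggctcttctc
CCNB2, chr15:59104996-59105145, plus strand: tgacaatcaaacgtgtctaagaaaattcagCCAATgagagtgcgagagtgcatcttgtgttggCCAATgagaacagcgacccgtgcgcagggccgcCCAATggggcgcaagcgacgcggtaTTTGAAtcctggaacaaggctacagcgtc
PLK1, chr16:23678739-23678888, plus strand: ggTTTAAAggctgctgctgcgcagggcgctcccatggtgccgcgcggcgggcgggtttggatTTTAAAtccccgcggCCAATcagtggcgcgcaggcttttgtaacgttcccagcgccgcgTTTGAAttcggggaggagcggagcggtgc
HMMR, chr5:163460482-163460631, plus strand: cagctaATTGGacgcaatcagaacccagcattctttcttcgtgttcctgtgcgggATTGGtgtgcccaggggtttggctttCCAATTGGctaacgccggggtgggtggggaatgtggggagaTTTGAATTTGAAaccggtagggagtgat
MKI67, chr10:128126424-128126573, minus strand: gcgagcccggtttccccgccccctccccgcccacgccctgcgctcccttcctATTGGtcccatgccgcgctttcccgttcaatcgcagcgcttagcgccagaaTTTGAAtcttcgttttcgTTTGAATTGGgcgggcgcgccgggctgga
NUF2, chr1:163321804-163321953, plus strand: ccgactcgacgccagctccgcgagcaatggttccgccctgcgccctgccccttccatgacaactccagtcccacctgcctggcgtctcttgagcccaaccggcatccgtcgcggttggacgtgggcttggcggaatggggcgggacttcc

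In CCNB1 the TTTAAA began 30 bases before the start, with CCAAT at 87 and 55 bases, and in CCNB2 the TTTGAA began at 29 bases, with CCAAT at 120, 87 and 54 bases. PLK1 had its TTTGAA at 29 bases as well, and HMMR had 2 copies side by side at 28 and 22 bases. Of the 42 windows, 25 held TTTGAA or TTTAAA (59.5%), against 12.6% of all 35116 windows in the table. TTTGAA alone was in 17 windows (40.5%, against 7.33%) and TTTAAA in 10 (23.8%, against 6.24%). CCAAT was in 31 windows (73.8%, against 23.5%), and 23 windows held it together with TTTGAA or TTTAAA (54.8%, against 3.25%). Windows with none of the 3 motifs belonged to AURKB, CDC25C, ECT2, KIF2C, MAD2L1, MELK, NDC80 and NUF2, which says only that these letters are not in those windows. Of these genes, AURKB, CDC25C and ECT2 each had another window that did hold a motif. Some genes have more than 1 window, a match is a description of the letters, and no binding was measured.

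Levels are given as CPM, counts per 1000000 after scaling of library sizes by the trimmed mean of M-values (TMM), and differences as log2(CPM + 1), which understates the change of genes at a few CPM. Levels are compared between genes only by the deposited RPKM, which is per length. CCNB1, the cyclin that activates CDK1 at mitotic entry, had the highest mean RPKM of the 41 (27.6, from 5.90 to 41.4 over the 6 libraries), and the kinetochore motor CENPE the lowest (0.413, from 0.144 to 0.708). The LNCaP ethanol library was the lowest of the 6 for all 41 genes. The median member stood at 2.72 CPM there, against 10.1 under DHT and 10.3 under bicalutamide in LNCaP. In BicR the median member stood at 18.05, 18.57 and 16.97 CPM under ethanol, DHT and bicalutamide. The highest library was BicR under DHT for 27 genes, BicR under ethanol for 12, LNCaP under DHT for NUF2 and LNCaP under bicalutamide for CENPE.

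**Figure D1:**
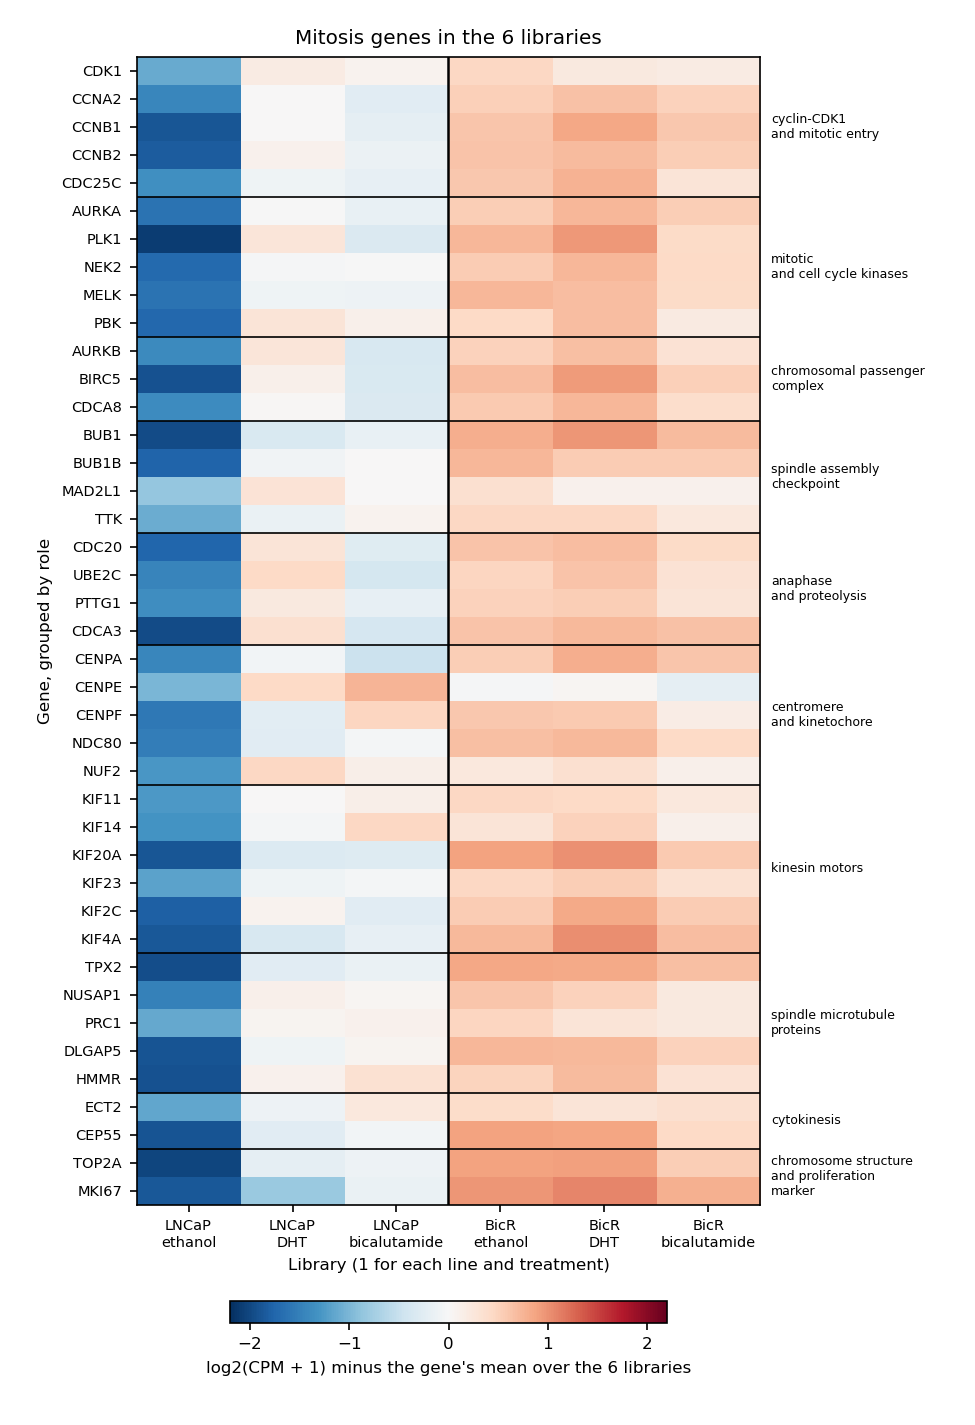
Level of each of the 41 genes in the 6 libraries as log2(CPM + 1) minus the gene's mean over the libraries (colour), with genes in rows grouped by role and libraries in columns. The LNCaP ethanol column is the lowest in all 41 rows, and the 3 BicR columns are the highest in most.

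The LNCaP ethanol library stood apart in other genes too, and every comparison that uses it shares that library. HSPA5, the main chaperone of the endoplasmic reticulum, took 0.79% of its counts, against 0.131% to 0.164% in the other 5 libraries. HSP90B1, its partner chaperone, stood at 5191 CPM there, against 1110 to 1436 CPM elsewhere. The 21 genes of the endoplasmic reticulum chaperone and stress list summed to 32645 CPM there, against 9131 to 12400 CPM elsewhere, and none was at 0. All 21 were lower under DHT than under ethanol in LNCaP, with a median difference of −1.28, and the median for bicalutamide was −1.51. Their part in the mitosis result was not tested. The labelled cell type was checked on its markers. Of the luminal prostate markers, KLK3 had 30963 to 285461 counts per library, HOXB13 17310 to 37519 and KRT8 31421 to 60899. Of the markers of other cell types, PTPRC, MS4A1, CDH5 and COL1A2, which define leukocytes, B cells, endothelium and fibroblasts, had 0 counts in all 6 libraries, and the basal keratin KRT5 had 1 to 4. Others of those lists had counts in every library: COL1A1 had 1071 to 2494, MYH11 602 to 1055, ACTA2 120 to 445, CD68 473 to 1426, VWF 150 to 452 and NGFR 34 to 319. The summed level was 44.1 to 50.4 CPM in BicR and 63.7 to 78.1 in LNCaP for the 8 fibroblast and smooth muscle markers, and 1.48 to 1.92 and 3.78 to 6.82 CPM for the 5 basal markers. For the 8 immune markers it was 12.1 to 18.05 CPM in BicR and 21.5 to 28.7 in LNCaP, and for the 5 endothelial markers it was 3.03 to 10.8 over all 6 libraries. NGFR (−1.56), COL1A1 (−0.72) and COL3A1 (−2.09) fell in BicR against LNCaP (edgeR adjusted p = 0.0267, 0.0420 and 0.0270), and their part in the line differences was not tested.

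In LNCaP the mitosis genes were higher with DHT than with ethanol throughout. Of the 41, 40 were up by 2-fold or more and 0 were down by as much, where 1.4% of all genes tested were up and 1.19% down. The median difference was 1.59 (log2), against 0.01 over all 13885 genes, and ran from 0.93 for the checkpoint kinase TTK, the single gene under 2-fold, to 2.35 for PLK1. For all 41 the 95% counting interval of the ratio of counts lay above 1. These intervals cover counting error only. They were computed for the members alone, so here and below no share of all genes stands beside their counts.

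Among the genes of mitotic entry, all 5 were over 2-fold higher. CCNB1 stood at 19.1 CPM under ethanol, 73.4 under DHT and 63.3 under bicalutamide in LNCaP, and at 112, 132 and 111 CPM in BicR. Its ratio of DHT to ethanol in LNCaP was 3.84 (95% counting interval 3.58 to 4.12), and each BicR library was above each LNCaP library. CCNB2, the second B-type cyclin, stood at 3.04, 14.2 and 12.1 CPM in LNCaP and at 21.04, 22.2 and 19.7 in BicR. CDC25C, a phosphatase that activates CDK1, had the smallest difference of the group, 1.26, at 1.52, 5.05 and 4.69 CPM in LNCaP and 8.70, 9.94 and 6.84 in BicR. The kinase CDK1 itself differed by 1.28, from 13.02 CPM under ethanol to 32.9 under DHT and 30.7 under bicalutamide, and stood at 40.1, 33.9 and 33.1 CPM in BicR. CCNA2, the cyclin of S phase and early mitosis, differed by 1.45.

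PLK1, a kinase of centrosome maturation and mitotic exit, had the largest log2 difference of all members. It stood at 5.68, 33.1 and 21.8 CPM in LNCaP under ethanol, DHT and bicalutamide, and at 46.0, 53.7 and 37.0 CPM in BicR. The ratio of DHT to ethanol in LNCaP was 5.84 (95% counting interval 5.15 to 6.64). The other kinases of its group, AURKA and NEK2 of the centrosome, and MELK and PBK, had differences from 1.54 (MELK) to 1.999 (PBK). In the chromosomal passenger complex, which corrects faulty attachments of chromosomes to the spindle, the kinase AURKB differed by 1.67 and its partners BIRC5 (survivin) and CDCA8 (borealin) by 2.04 and 1.41. BIRC5 stood at 6.12, 28.2 and 20.5 CPM in LNCaP and at 42.5, 50.7 and 37.7 in BicR. CDCA8 stood at 7.52, 21.6 and 16.8 CPM in LNCaP and at 31.9, 35.8 and 28.1 in BicR. For both, the LNCaP ethanol library was the lowest and the 3 BicR libraries the highest.

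The spindle assembly checkpoint, which holds anaphase back until chromosomes are attached, held the gene with the smallest log2 difference of all members. TTK (MPS1) stood at 1.04, 2.89 and 3.58 CPM in LNCaP and at 4.93, 4.96 and 4.09 in BicR. Its ratio of DHT to ethanol in LNCaP was 2.78 (95% counting interval 2.02 to 3.88), over 2-fold before 1 was added to each CPM. By ratio of counts, MKI67 and ECT2 were among the members that differed less than TTK. MAD2L1, the inhibitor of CDC20, stood at 3.98, 10.0 and 8.05 CPM in LNCaP and at 10.4, 8.51 and 8.54 in BicR, so the lines overlapped. BUB1B (BUBR1) differed by 1.69 and BUB1 by 1.63. Downstream of the checkpoint, the 4 genes of anaphase and proteolysis had the highest median of any role group, 1.97. CDC20, the activator of the anaphase-promoting complex, stood at 8.20, 36.9 and 24.6 CPM in LNCaP and at 46.9, 48.4 and 40.5 in BicR. CDCA3 stood at 2.74, 17.6 and 10.3 CPM in LNCaP and at 21.4, 22.9 and 21.7 in BicR, a ratio of DHT to ethanol of 6.41 in LNCaP (95% counting interval 5.35 to 7.72). The ubiquitin-conjugating enzyme UBE2C differed by 1.90, and PTTG1 (securin), which inhibits separase and has near-identical gene copies that may share its reads, by 1.59.

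All 5 centromere and kinetochore genes were over 2-fold higher with DHT. CENPA, the histone H3 variant of centromeres, stood at 1.48, 5.49 and 3.87 CPM in LNCaP and at 8.83, 10.7 and 9.34 in BicR. NUF2 and NDC80 are partners in the complex that grips microtubules. NUF2 had 22 counts in the LNCaP ethanol library and 206 under DHT, a ratio of 8.62 (95% counting interval 5.54 to 14.1), the largest ratio of counts among the members and the widest interval. It stood at 0.44, 3.79 and 2.84 CPM in LNCaP and at 3.13, 3.50 and 2.79 in BicR, so apart from the LNCaP ethanol library the lines overlapped. NDC80 differed by 1.27, the smallest of the group. The 6 kinesins differed by 1.08 (KIF23, of the central spindle) to 1.89 (KIF2C, which takes microtubules apart at kinetochores). KIF2C stood at 4.90, 20.8 and 16.4 CPM in LNCaP and at 29.4, 35.7 and 29.3 in BicR.

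Among spindle proteins, TPX2, the activator of Aurora A, had the highest mean RPKM (10.8), and stood at 11.8, 40.3 and 43.4 CPM in LNCaP and at 88.5, 86.9 and 77.4 in BicR. HMMR stood at 1.74, 10.1 and 12.1 CPM in LNCaP and at 13.5, 15.8 and 12.003 in BicR. The difference of DHT from ethanol in LNCaP was 2.02 for HMMR and 1.19 for PRC1, the microtubule bundler of the central spindle, which stood at 14.1, 33.4 and 33.8 CPM in LNCaP and 44.4, 39.1 and 36.8 in BicR. The cytokinesis genes ECT2 and CEP55 differed by 1.05 and 1.65. ECT2, the exchange factor that activates RhoA at the division plane, stood at 8.92, 19.5 and 24.8 CPM in LNCaP and at 28.0, 25.7 and 27.0 in BicR. CEP55, of the midbody, stood at 0.86, 4.82 and 5.63 CPM in LNCaP and at 11.8, 11.5 and 8.40 in BicR. TOP2A, the topoisomerase that untangles chromosomes, differed by 1.82, and MKI67, the proliferation marker Ki-67 that coats mitotic chromosomes, by 1.05.

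Bicalutamide was on the same side of ethanol as DHT in LNCaP, in the comparison that shares the ethanol library with the one above. Of the 41 genes, 39 were at least 2-fold higher with the antiandrogen than with ethanol, against 1.08% of all genes tested, and 0 were 2-fold lower, against 1.52%. Without a TMM factor these shares of all genes were 1.63% and 0.9%, and their median was 0.15. The median difference was 1.56, against 0.01 over all genes. MAD2L1 (0.86) and CENPA (0.97) were the 2 genes under 2-fold on this scale, and both were over 2-fold before 1 was added to each CPM. HMMR had the largest difference, 2.26, a ratio of counts of 6.96 (95% counting interval 5.56 to 8.81), and CENPF followed at 2.05. By role, the median ran from 1.06 in the chromosomal passenger complex to 1.81 for TOP2A and MKI67.

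**Figure D2:**
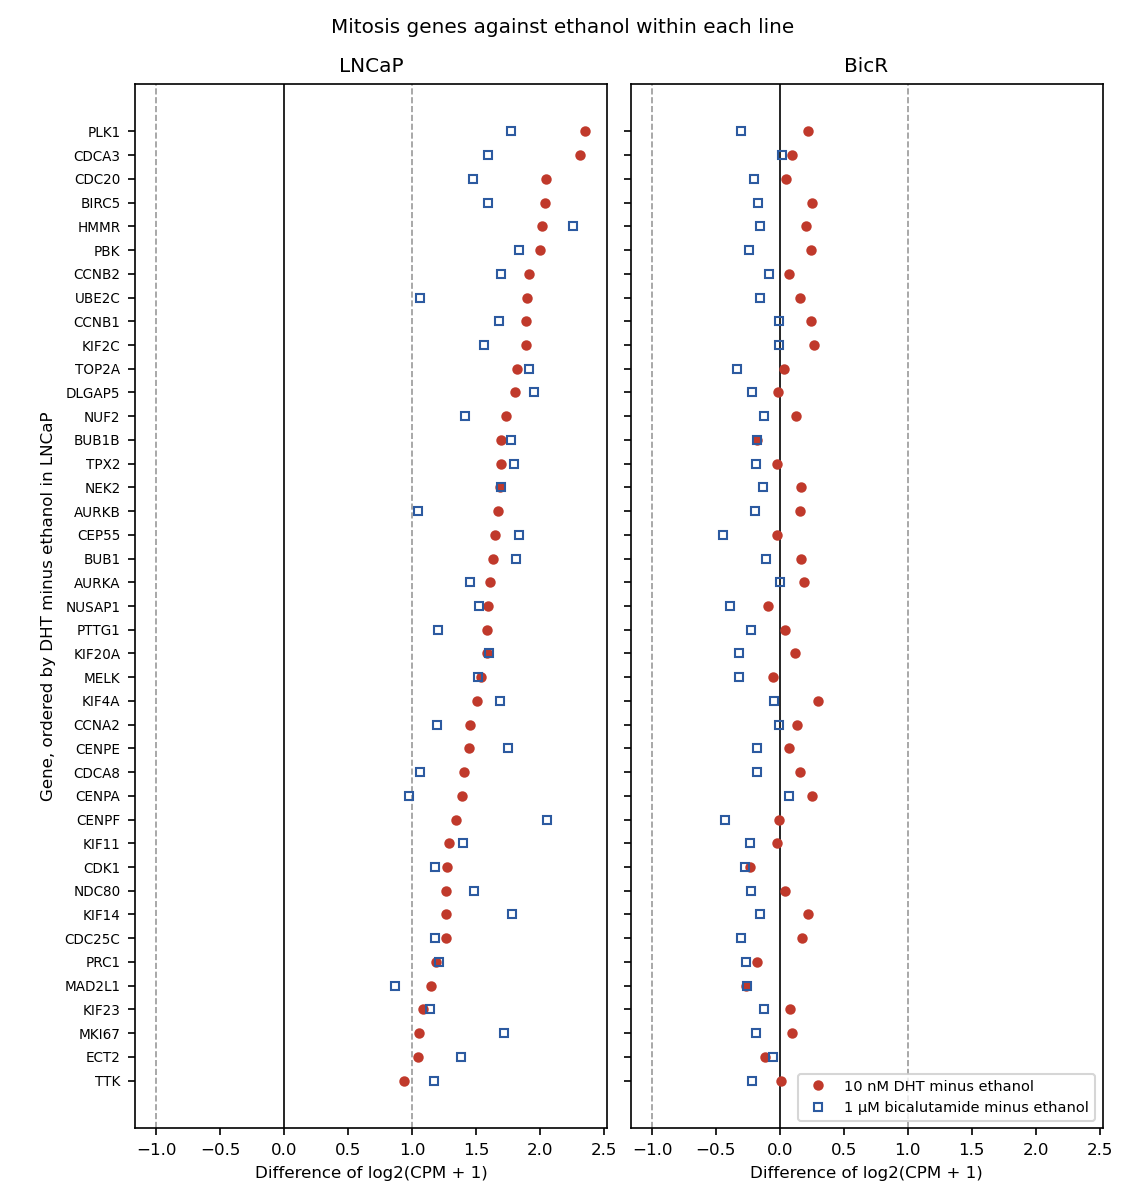
Difference from the line's own ethanol library in log2(CPM + 1) for each of the 41 genes (rows), with DHT as filled circles and bicalutamide as open squares, LNCaP on the left and BicR on the right. Dashed lines mark 2-fold. In LNCaP the points lie between 0.86 and 2.35, and in BicR between −0.44 and 0.30.

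DHT and bicalutamide were also compared directly, which leaves the ethanol libraries out. In LNCaP, 0 of the 41 genes differed 2-fold between them, where 1.58% of all genes were up by that much under DHT and 0.893% down (1.14% and 1.33% without a TMM factor). The median difference was 0.03 (log2), a sign that turned without a TMM factor (−0.05) and on RPKM (−0.03), and the members spread to both sides of it. UBE2C (0.83), CDCA3 (0.72), AURKB (0.63), PLK1 (0.58) and CDC20 (0.56) were the most above 0, and CENPF (−0.71), MKI67 (−0.66) and KIF14 (−0.51) the most below. The counting interval of the ratio lay above 1 for 17 genes, below 1 for 11 and held 1 for 13.

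This spread followed gene length. Relative gene model length was taken as counts per RPKM, with the median tested gene set to 1. Across the 41 members Spearman's rho between length and the difference of DHT from bicalutamide was −0.80, and across all 13885 genes it was −0.56. These are correlations across genes within the same pair of libraries, given as a description. The 14 shortest members had a median of 0.35, the 13 of middle length 0.03 and the 14 longest −0.14. Over all genes, the medians of the shortest and the longest of 20 length bins were 0.40 and −0.50. With the median of each gene's length bin subtracted, the rho over members was −0.31, the difference was 0.56 for UBE2C, 0.47 for PLK1, 0.36 for CDCA3 and 0.33 for AURKB, and it was −0.21 for CENPF, −0.16 for MKI67 and −0.14 for KIF14.

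Short transcripts as a class differed between these libraries as well: the summed share of 86 genes for ribosomal proteins was 5.73%, 6.33% and 3.91% in LNCaP under ethanol, DHT and bicalutamide, against 4.04%, 3.81% and 3.91% in BicR. Their part in the result was not tested. The comparisons with ethanol kept their size under the same subtraction. With DHT the median was then 1.57 and 40 genes were at least 2-fold higher, and with bicalutamide it was 1.55 and 41 genes were. For MKI67, the longest member, DHT minus ethanol went from 1.05 to 1.29 and bicalutamide minus ethanol from 1.71 to 1.40.

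**Figure D3:**
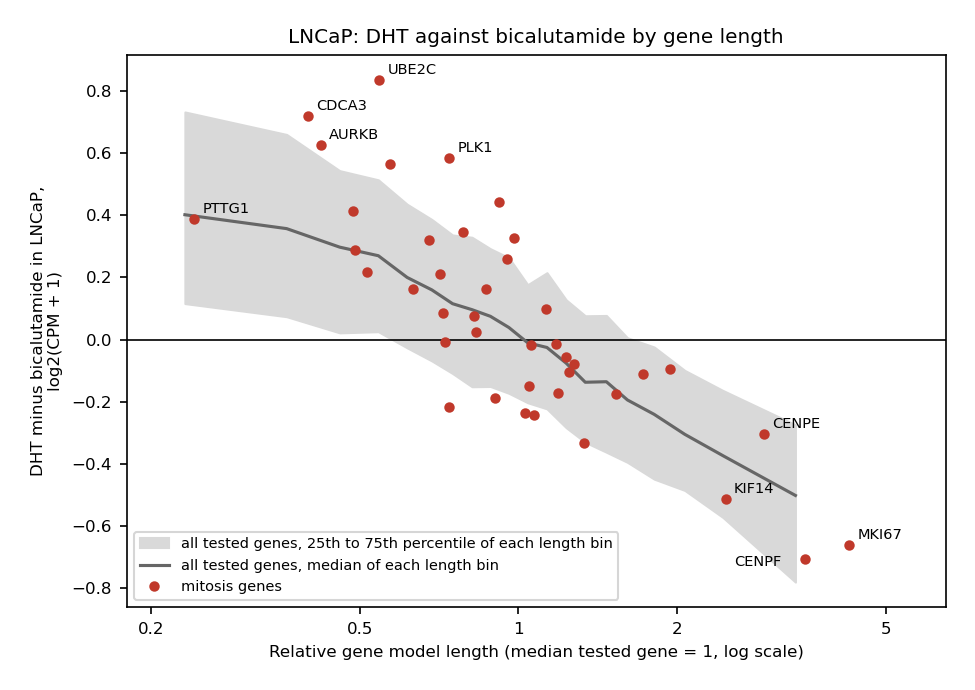
Difference between the DHT and bicalutamide libraries of LNCaP in log2(CPM + 1) (vertical axis) against relative gene model length on a log axis, where 1 is the median tested gene. Red points are the 41 mitosis genes, the line is the median of all tested genes in 20 length bins, and the band is their 25th to 75th percentile. Short members such as UBE2C (0.83) lie above 0 and long members such as CENPF (−0.71) below, along the slope of all genes.

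In BicR the same treatments gave differences of a smaller size. DHT against ethanol had a median of 0.09 over the members (−0.01 on RPKM), from −0.26 for MAD2L1 to 0.30 for KIF4A, and 0 of 41 passed 2-fold, against 1.45% of all genes higher and 0.922% lower (1.27% for both without a TMM factor). The counting interval lay above 1 for 15 genes, below 1 for 5 and held 1 for 21. KIF4A, a chromosome-bound kinesin, had the largest difference, at 18.7 CPM under ethanol, 23.2 under DHT and 18.1 under bicalutamide, a ratio of DHT to ethanol of 1.24 (95% counting interval 1.14 to 1.36). Bicalutamide against ethanol had a median of −0.19, from −0.44 for CEP55 to 0.07 for CENPA, and 0 of 41 passed 2-fold, as did 0.0% of all genes in either direction. The counting interval lay below 1 for 24 genes and above 1 for 0. DHT against bicalutamide had a median of 0.27, from −0.07 for ECT2 to 0.53 for PLK1, and 0 of 41 passed 2-fold, against 1.43% of all genes higher and 1.04% lower.

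Of these small differences in BicR, the one between DHT and bicalutamide had the most members with a counting interval on one side of 1. The counting interval lay above 1 for 32 genes, below 1 for 0 and held 1 for 9. No such count was made over all genes, whose median difference was 0.005. For PLK1 the ratio was 1.45 (95% counting interval 1.37 to 1.55), and for CENPF 1.35 (1.27 to 1.43). Relative gene length had a rho of 0.04 with this difference over the members and −0.07 over all genes. With 1 library each, a difference of this size cannot be told apart from that between cultures.

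Mitosis transcripts had higher medians in BicR than in LNCaP under each treatment, and the largest under ethanol. Under ethanol BicR was higher by 2-fold or more in 40 of 41 genes (2.62% of all genes) and as much lower in 0 (3.88%). The median over the members was 2.16. CENPE, at 0.98, was the exception, though it was over 2-fold higher before 1 was added to each CPM. TOP2A had the largest difference, 2.90, at 8.90 CPM in LNCaP and 72.99 in BicR. Its counts stood in a ratio of 8.20, with a 95% counting interval of 7.43 to 9.07. By ratio of counts CEP55 was further apart, at 13.7 (10.0 to 19.1). This pair holds the LNCaP ethanol library described above. Without a TMM factor the shares of all genes were 3.76% and 2.41%, and the median of all genes was 0.17.

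Under DHT the median was 0.64 and BicR was ahead by 2-fold or more in 7 genes and behind in 0, against 2.81% and 4.7% of all genes: MKI67 (1.88), the kinesins KIF4A (1.38) and KIF20A (1.30), BUB1 (1.31), TOP2A (1.11), CEP55 (1.11) and TPX2 (1.09). Under bicalutamide the median was 0.53 and BicR was ahead by 2-fold or more in 2 genes and behind in 0, against 0.684% and 1.27% of all genes: CENPA (1.09) and CDCA3 (1.01). On this scale CENPE came nearest to being lower in BicR by 2-fold, at −0.40 under DHT and −0.95 under bicalutamide. It stood at 6.96 and 8.83 CPM in LNCaP against 5.05 and 4.09 in BicR. Under bicalutamide it was over 2-fold lower before 1 was added to each CPM. The pair under DHT also followed length over all genes (rho 0.37 over 13885 genes, 0.30 over the members), and with the length bin's median subtracted 9 members were at least 2-fold higher.

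**Figure D4:**
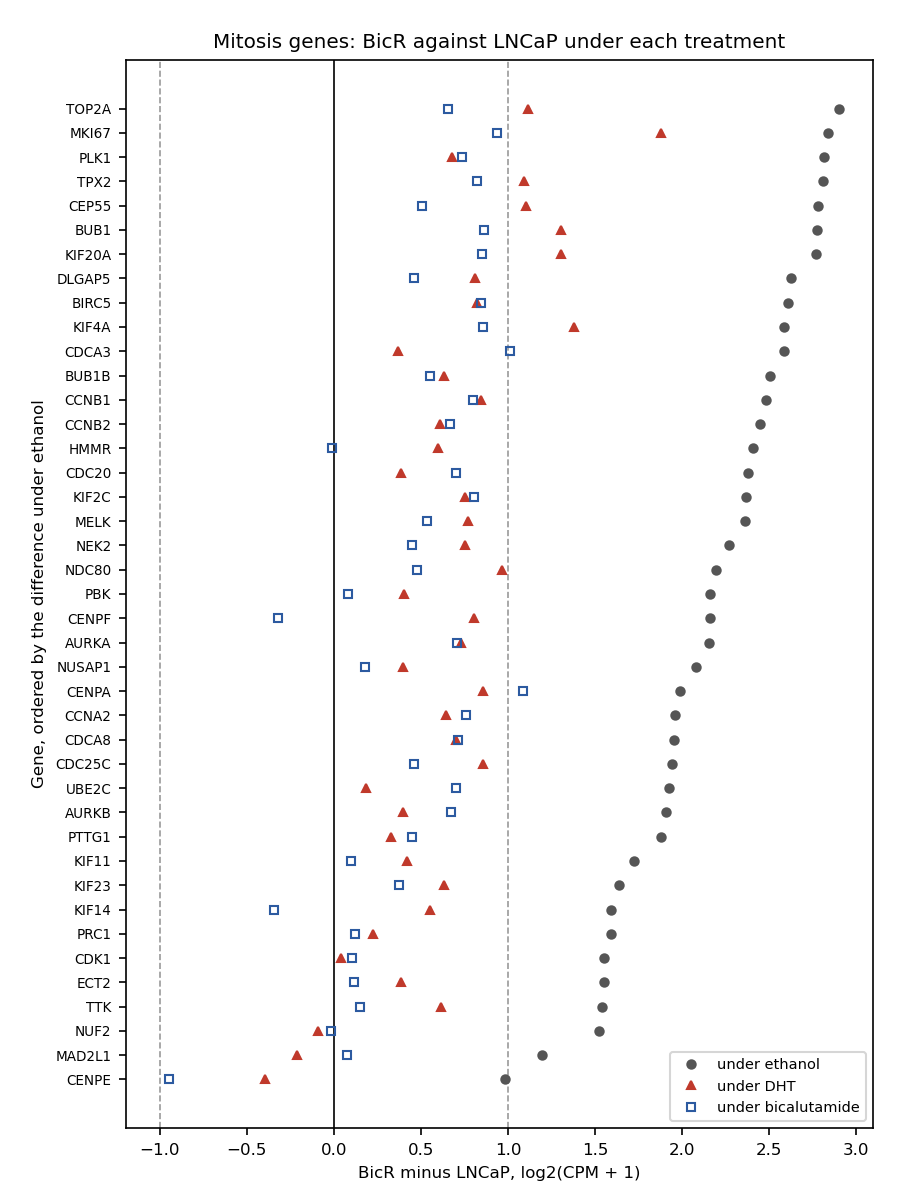
Difference of BicR from LNCaP in log2(CPM + 1) for each of the 41 genes (rows) under ethanol (grey circles), DHT (red triangles) and bicalutamide (open blue squares). Dashed lines mark 2-fold. The ethanol points lie from 0.98 to 2.90, while those under DHT and bicalutamide lie from −0.95 to 1.88.

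Over the 3 treatments, 33 of the 41 genes had every BicR library above every LNCaP library, against 16.6% of all genes tested. The exceptions were PBK, MAD2L1, UBE2C, CENPE, CENPF, NUF2, KIF14 and HMMR. The line difference is the comparison that an additive model of line and treatment can test, fitted to all genes with edgeR's quasi-likelihood test and Benjamini-Hochberg adjustment. It rests on 2 residual degrees of freedom, and the spread behind its p-values is that among these libraries alone, which may be technical. In that model 8 members rose in BicR over LNCaP (adjusted p under 0.05) and 0 fell, against 1.58% of all genes higher and 2.84% lower. The estimate was positive for 40 of 41, with a median log2 fold change of 1.29, against 0.00 over all genes.

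MKI67 had the largest estimate, a log2 fold change of 1.93 (SE 0.32, edgeR adjusted p = 0.0189). It stood at 12.7, 27.5 and 44.0 CPM in LNCaP under ethanol, DHT and bicalutamide and at 96.96, 104 and 85.1 CPM in BicR, so that the lowest BicR library was 1.93-fold above the highest LNCaP library (95% counting interval 1.84 to 2.03). CENPA, second by adjusted p, was at 1.57 (SE 0.32, edgeR adjusted p = 0.0330). The chromosome-bound kinesin KIF4A rose by 1.77 (SE 0.36, edgeR adjusted p = 0.0331), at 2.28, 8.32 and 9.52 CPM in LNCaP and 18.7, 23.2 and 18.1 in BicR. KIF20A, a kinesin of cytokinesis, rose by 1.78 (SE 0.38, edgeR adjusted p = 0.0390), at 2.72, 10.1 and 10.3 CPM in LNCaP and 24.4, 26.5 and 19.3 in BicR. BUB1, the checkpoint kinase of kinetochores, rose by 1.79 (SE 0.39, edgeR adjusted p = 0.0398), at 2.46, 9.74 and 11.1 CPM in LNCaP and 22.7, 25.6 and 21.02 in BicR. In these 5 genes the ranges of the lines did not overlap.

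TPX2 (1.59, edgeR adjusted p = 0.0449), CDCA8 (1.17, 0.0481) and CCNB1 (1.38, 0.0491) completed the 8. BIRC5 (1.47, edgeR adjusted p = 0.0525), KIF2C (1.37, 0.0540) and TOP2A (1.58, 0.0588) lay just outside the threshold. At an unadjusted p under 0.05 the test counted 34 of the 41 as higher, where it counted 1476 of 13885 genes as higher and 1969 as lower, and CENPE, at −0.13 (edgeR adjusted p = 0.871), was the member with a negative estimate. With either bicalutamide library left out, 0 members and 0 of all genes passed. With either ethanol library left out, the median log2 fold change over the members was 0.68.

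For the treatments the additive model passed 0 members. DHT against ethanol over both lines had a positive estimate for all 41, with a median log2 fold change of 0.83, and edgeR adjusted p from 0.784 to 1.0, where 0.158% of all genes passed as higher and 0.0072% as lower. At an unadjusted p under 0.05 it counted 11 members as higher, where it counted 381 of 13885 genes as higher and 401 as lower. This model takes a response in LNCaP alone as noise. Without the BicR ethanol library 38 members passed with a median of 1.98, where 167 of 13885 genes passed as higher and 106 as lower. The LNCaP ethanol library is then the whole ethanol group, assumed to vary like the other groups. Without the LNCaP ethanol library 0 members passed with a median of 0.06. Bicalutamide against ethanol passed 0 members and 0.0% of all genes, with a median of 0.72, positive for 41, and 0 members had an unadjusted p under 0.05. With LNCaP ethanol as the lone ethanol library 35 passed, where 102 of 13885 genes passed as higher and 95 as lower, and without it the median was −0.14. DHT against bicalutamide passed 0 members, against 0.166% of all genes higher, with a median of 0.13 and 0 members at an unadjusted p under 0.05. Its median turned to −0.28 without the LNCaP DHT library and −0.33 without BicR bicalutamide, and was 0.78 without LNCaP bicalutamide and 0.45 without BicR DHT.

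Other genes of cell division were read from 7 lists of the same biology. Their counts at 2-fold in LNCaP stand beside 1.4% of all genes higher with DHT and 1.08% with bicalutamide. The list nearest in role, 37 other late cell cycle and cytokinesis genes, had a median of 1.22 for DHT against ethanol in LNCaP, with 23 at least 2-fold higher, and 1.07 for bicalutamide, also with 23. Of these 37, 8 rose in BicR over LNCaP by edgeR's quasi-likelihood test and 0 fell, against 1.58% and 2.84% of all genes. FAM83D, a spindle protein, was among the 8 (1.52, edgeR adjusted p = 0.0420). FAM83D stood at 5.76, 23.5 and 18.5 CPM in LNCaP and at 38.8, 44.3 and 37.0 in BicR, and CDCA2 at 1.22, 6.63 and 6.97 and at 14.1, 16.2 and 12.2. The 30 genes of the constitutive centromere network and outer kinetochore had medians of 0.69 and 0.57 in LNCaP, with 9 and 4 at least 2-fold higher. Among them HJURP, the chaperone that loads CENPA, stood at 2.76, 14.03 and 15.9 CPM in LNCaP and at 26.8, 24.1 and 24.4 in BicR. CENPN had another pattern: it stood at 10.3, 69.7 and 13.97 CPM in LNCaP and at 22.7, 299.8 and 20.2 in BicR, so that it was high under DHT in both lines.

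The 21 condensin and cohesin genes, which shape and hold chromatids, had medians of 0.34 with DHT and 0.73 with bicalutamide, with 7 and 6 at least 2-fold higher. CDCA5 (sororin), which protects cohesin, stood at 6.76, 23.1 and 12.6 CPM in LNCaP and at 26.6, 25.3 and 23.1 in BicR. The condensin subunit NCAPG stood at 1.46, 6.37 and 6.86 CPM in LNCaP and at 12.98, 12.9 and 11.0 in BicR. In the additive model, another gene of this list had its largest log2 fold change for DHT against ethanol, 2.72. The list's median was 0.12, and 0 of the 21 passed as higher, against 0.158% of all genes. The 15 subunits and cofactors of the anaphase-promoting complex, whose activator CDC20 and partner enzyme UBE2C are among the members, had medians of 0.07 and 0.02, and 0 were at least 2-fold apart in either. Their largest difference with DHT was 0.70, for UBE2S, followed by 0.52 for ANAPC10. The 43 genes of G1/S and DNA replication had medians of 0.49 and 0.32, with 6 and 1 at least 2-fold higher (1.4% and 1.08% of all genes). RRM2, the small subunit of ribonucleotide reductase, stood at 2.52, 11.3 and 6.36 CPM in LNCaP and at 21.5, 18.5 and 15.9 in BicR. TK1, the thymidine kinase of S phase, stood at 20.96, 65.5 and 29.9 CPM in LNCaP and at 50.2, 39.8 and 44.6 in BicR, highest under DHT in LNCaP. In BicR the replication list had a median of −0.24 with DHT, with 7 of 43 above 0, where the mitosis genes had 0.09.

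**Figure D5:**
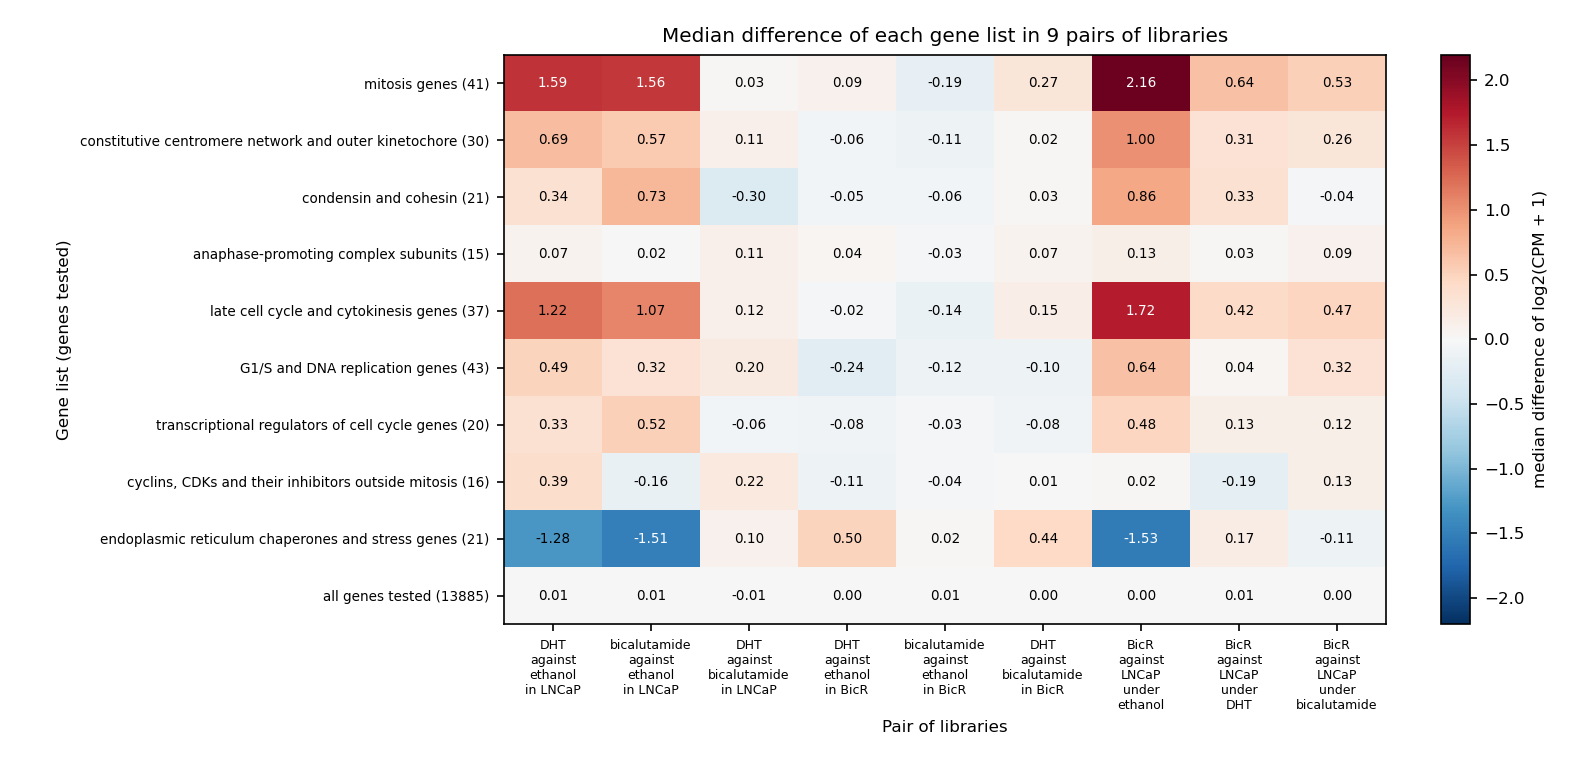
Median difference in log2(CPM + 1) of each gene list (rows, with the number of genes tested) in the 9 pairs of libraries (columns), printed in each cell and shown by colour. The mitosis row reaches 1.59, 1.56 and 2.16 in the 3 pairs that hold the LNCaP ethanol library, the late cell cycle row 1.22, 1.07 and 1.72, and the row of the anaphase-promoting complex 0.07, 0.02 and 0.13.

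Of the 20 transcriptional regulators, FOXM1 and MYBL2 (B-MYB), the activators of CHR promoters, had the largest differences with DHT in LNCaP. FOXM1 stood at 17.0, 63.4 and 51.0 CPM in LNCaP and at 117, 120 and 110 in BicR, and rose in BicR with a log2 fold change of 1.58 (edgeR adjusted p = 0.0361). MYBL2 stood at 7.82, 31.5 and 22.1 CPM in LNCaP and at 40.2, 31.1 and 37.9 in BicR, where the lines overlapped (edgeR adjusted p = 0.146). E2F1, the activator of G1/S genes, stood at 6.20, 13.4 and 7.74 CPM in LNCaP and 14.8, 10.4 and 12.3 in BicR. RB1, its inhibitor, differed by 0.04 between DHT and ethanol in LNCaP. Over the whole list the medians were 0.33 with DHT and 0.52 with bicalutamide.

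Among the 16 cyclins, CDKs and inhibitors outside mitosis, CDKN1A (p21), an inhibitor of cyclin-CDK complexes and a target of p53, fell in BicR against LNCaP with a log2 fold change of −1.37 (edgeR adjusted p = 0.0261). It stood at 852, 443 and 388 CPM in LNCaP under ethanol, DHT and bicalutamide and at 200, 183 and 229 in BicR, so it was highest in the library in which the mitosis genes were lowest. CCND1, a D-type cyclin of G1, stood at 265, 459 and 411 CPM in LNCaP and at 489, 430 and 507 in BicR. PKMYT1, which inhibits CDK1, differed by 1.46 and the D-type cyclin CCND2 by −1.33 between DHT and ethanol in LNCaP, the largest differences of the list. Its medians were 0.39 with DHT and −0.16 with bicalutamide.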

How the data were processed

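RNA of 6 libraries (2 lines, 3 treatments, 1 library each) was sequenced on the SOLiD 3 Plus, per the labels' protocols. The authors deposited 1 table with raw counts per gene symbol and RPKM, which they scaled to gene length and depth, per the file headers. Reads were placed on hg19, according to the submitters' processing notes. Which aligner, counter, annotation and strand setting served is not given in the sources used here, so reads of overlapping or near-identical genes may have been split between them.

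Library sizes were scaled by TMM, and 13885 of 21512 rows had a mean of at least 20 counts. An additive model of line and treatment was fitted with edgeR 4.0.16 (quasi-likelihood F test, 2-sided, Benjamini-Hochberg over all genes tested, threshold 0.05; R 4.3.3). It had 2 residual degrees of freedom and a prior of 6.8, and was tested on simulated counts. Pairs of libraries were compared by the difference of log2(CPM + 1), called at 2-fold, and by the ratio of counts with an exact 95% (Clopper-Pearson) counting interval. Reads carry no molecular identifiers, so intervals cover counting error only. Counts range from 42162723 to 55917016 per library, and nothing says that libraries came from replicate cultures.

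The members and the gene lists were chosen with earlier results of these data known. All 203 genes of the other lists were tested, and 4 of their symbols were matched through older names. Named members are those with the highest mean RPKM and the largest and smallest difference of DHT from ethanol in LNCaP per role group, and any past 2-fold between lines or passing edgeR. In other lists they are the 2 largest differences of DHT from ethanol in LNCaP and 6 set regulators, and outside the lists the 10 nearest profiles. Alternatives were RLE scaling, other filters, pseudocounts of 0.1 and 5, no scaling factor, RPKM, DESeq2 1.42.0, limma 3.58.1 and leaving out each library. The subtraction of the median of genes of like length was added after the data were seen. Some luminal marker genes are not reported here.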

Additional observations from a re-analysis of the deposited data

Results flagged for a closer look

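The median difference of bicalutamide from ethanol had opposite signs in the lines. Against its own ethanol library, the median of the 41 mitosis genes was 1.559 on the log2(CPM + 1) scale in LNCaP and −0.186 in BicR. Over all genes tested the medians were 0.013 in LNCaP and 0.008 in BicR. In 39 of the 41 genes the LNCaP difference was above 0 and the BicR difference below 0. For 24 of these the 95% counting intervals of both ratios left out 1. Neither count was made over all genes, so no share of all genes stands beside them. No member was at least 2-fold apart in both lines in opposite directions. For bicalutamide this was fixed in advance, since 0.0% of all genes were 2-fold apart from ethanol in BicR. The difference between the lines was not tested, since each value comes from a single pair of libraries, and the LNCaP value rests on the LNCaP ethanol library. A difference of the size seen in BicR cannot be told apart from that between cultures.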

How the results depend on the processing

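Medians over the members near 0 turned sign: DHT against bicalutamide in LNCaP was −0.05 without a TMM factor, −0.03 on RPKM and −0.01 with the length correction, and DHT against ethanol in BicR was −0.01 on RPKM. The other medians kept their sign under the other scalings, filters, pseudocounts and tools tried. Of 90 differences of single members, all 90 moved by less than their counting error under RLE size factors, no scaling factor and a pseudocount of 0.1, while 26 moved by more on RPKM, 36 with a pseudocount of 5 and 9 with the length correction. The count of members at least 2-fold higher moved most with the pseudocount. With 5 it was 20 for DHT and 19 for bicalutamide against ethanol in LNCaP (0.562% and 0.324% of all genes). It was then 0 for BicR against LNCaP under bicalutamide (0.302% of all genes). On RPKM with a pseudocount of 1 the count was 23 for DHT against ethanol in LNCaP (0.699% of all genes). Between the lines it was 4 under DHT (1.38%) and 0 under bicalutamide (0.375%). The 8 members passing between the lines became 28 without a filter, where 503 of 18524 genes passed as higher and 857 as lower. A mean of at least 200 counts gave 3 (39 members tested), and 117 of 11385 genes higher and 205 lower. DESeq2's Wald test gave 24 members, and 557 of 13885 genes higher and 933 lower. With limma on log2(RPKM + 1) 16 members passed, and 263 of 13885 genes as higher and 362 as lower. The cause was not tested. Leaving out each library in turn gave 0 to 38 passing members for DHT against ethanol, 0 to 35 for bicalutamide against ethanol, 0 for DHT against bicalutamide and 0 to 19 between the lines. The median between the lines was 1.60 without LNCaP DHT and 1.60 without BicR DHT. With an ethanol library left out, the lone ethanol library is fitted exactly, so the line difference then rests on DHT and bicalutamide. The additive model already takes line and treatment as blocks of each other, and the labels give no replicate number for a further block. Depth limits the ratios of the lowest members: NUF2 has 22 counts in LNCaP under ethanol.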

Other observations

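Outside all the cell cycle lists, genes were ranked by how near their profile over the 6 libraries lay to the median profile of the mitosis genes, as the root mean square distance of centred log2(CPM + 1), among 11186 genes whose mean count was 200 or more. The nearest was FAM72D at 0.029, a gene with near-identical copies that may share its reads. It stood at 1.04, 5.43 and 4.68 CPM in LNCaP under ethanol, DHT and bicalutamide and at 8.25, 9.08 and 7.06 in BicR. DIAPH3, a formin that builds actin filaments, followed at 0.086, at 1.76, 6.30 and 6.53 CPM in LNCaP and 10.6, 10.6 and 9.28 in BicR. SHCBP1 (0.149), C9orf100 (0.153), GPSM2 (0.154), SLC4A4 (0.155), C12orf48 (0.169), PRR11 (0.177), C11orf82 (0.178) and ESCO2 (0.209) came next. GPSM2 orients the mitotic spindle, and ESCO2 acetylates cohesin. SLC4A4, a sodium bicarbonate cotransporter, stood at 34.6, 76.8 and 80.2 CPM in LNCaP and 134, 134 and 126 in BicR.

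The candidates had a median distance of 0.796, and the members themselves a median of 0.214, from 0.054 for AURKA to 0.641 for CENPE. MAD2L1 (0.451) and MKI67 (0.442) came after CENPE. The 3 lay off the median profile in different ways: CENPE and MAD2L1 overlapped between the lines, while MKI67 was lower in every LNCaP library than in every BicR library.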
